A study of Mus musculus with 13 samples.

Results

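The genes of the proteasome were examined in mouse lung 14 days after bleomycin. They were taken as every row of the tables whose symbol begins with Psma, Psmb, Psmc, Psmd, Psme, Psmf or Psmg followed by a digit, which gave 51 of 20270 genes. The 5 immunoproteasome genes Psmb8, Psmb9, Psmb10, Psme1 and Psme2 were kept apart from the other 46. By role, 48 of the 51 are subunits, activators, an inhibitor or assembly chaperones of the proteasome, and 3 (Psmc3ip, Psme2b and Psme3ip1) match the symbol rule only. Poly(A)-selected RNA from the lower right lobe was sequenced in 13 mice of 3 groups, each on the C57BL/6J background. The control group held 4 wild-type mice that received saline by the study's methods, the WT bleomycin group 5 wild-type mice, and the group labelled CB1R KO bleomycin 4 Cnr1-/- mice. Bleomycin, a drug that damages DNA and causes lung fibrosis, was given once into the oropharynx at 1 U per kg, 14 days before the lungs were taken. Wild-type males were obtained at 13 weeks of age, and the age of the knockout mice was not given. The Cnr1-/- allele is carried in all cells, and no Cnr1-/- mouse without bleomycin was analysed here, so that genotype could be compared after bleomycin only.

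The proteasome is the protease that degrades proteins tagged with ubiquitin. Its core particle is a barrel of alpha and beta rings, with the proteolytic sites on the beta subunits encoded by Psmb5 (chymotrypsin-like), Psmb6 (caspase-like) and Psmb7 (trypsin-like). The regulatory particle caps the barrel, binds ubiquitin, removes it and unfolds the substrate with a ring of ATPases. Under interferon gamma, cells make Psmb8, Psmb9 and Psmb10, which take the places of Psmb5, Psmb6 and Psmb7 in newly built core particles and change which peptides are cut for display on MHC class I. Psme1 and Psme2 form an interferon-inducible activator that opens the barrel without ubiquitin. When proteasome activity falls, the transcription factor encoded by Nfe2l1 is known to raise the subunit genes together.

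Of the 13 libraries, 12 held between 14615904 and 16662580 estimated counts (median 16048480), and replicate 11 of the CB1R KO group held 53463884, which is 3.33 times that median. Cnr1, the targeted gene, had 27 to 69 estimated counts in the control libraries, 50 to 110 in the WT bleomycin libraries and 41 to 188.1 in the libraries labelled CB1R KO. The 188.1 belonged to replicate 11, the deepest library, while CB1R KO replicates 8, 9 and 10 had 86, 41 and 74.1, all without scaling to library size. These counts do not check the genotype, because the sources used here do not say which exons the allele lacks, and the knockout libraries are named below by their label. The 5 type II cell markers, led by the surfactant gene Sftpc, summed to 18588 TPM or more in each of the 13 libraries, so that all held lung epithelium. In bulk tissue, a gene carried by fewer cells and a gene transcribed less in each cell cannot be told apart. Values per library are given below as read counts scaled to library size with TMM factors (CPM) to compare a gene between libraries, and as length-scaled abundances (TPM) to compare genes, in the order control replicates 3, 21, 24 and 26, WT bleomycin replicates 4, 2, 5, 4-B2 and 7, and CB1R KO replicates 8, 9, 10 and 11.

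Proteasome genes were transcribed at unequal levels in control lung. Among the 14 constitutive core subunits the mean level ran from 35.4 TPM for Psma3 to 156 TPM for Psmb6, with a median of 108 TPM. The 17 subunits of the regulatory particle with Psm symbols lay lower, from 38.8 TPM for Psmd14 to 128 TPM for Psmc3 (median 67.4 TPM), and the 7 assembly chaperones, which are needed only while a particle is built, from 14.3 TPM for Psmg3 to 29.3 TPM for Psmg4. The summed level of the 51 members was 3449 ± 71.4 TPM (SD, n = 4) in control, 4416 ± 152 TPM (SD, n = 5) in WT bleomycin and 4329 ± 274 TPM (SD, n = 4) in CB1R KO bleomycin lungs. Immunoproteasome genes were well transcribed in lungs without bleomycin: Psme1 stood at 169 ± 12.4 TPM (SD, n = 4), above every constitutive core subunit's mean, and Psmb9 at 42.4 ± 2.69 TPM (SD, n = 4). The subunits that are restricted to other organs were near the limit of detection. Psma8, which replaces Psma7 in testis, had 0.9 to 8 estimated counts in the control libraries and was not tested, and Psmb11, the thymus-specific catalytic subunit, had 6.1 to 14.6. Their values in the bleomycin libraries were of the same order, at most 31 and 25.8 estimated counts. Both maxima were in CB1R KO replicate 11, the deepest library, where Psma8 was at 0.572 CPM and Psmb11 at 0.48 CPM.

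Most proteasome genes were higher in wild-type lungs after bleomycin. Of the 50 members that passed the filter on low counts, 36 were higher after bleomycin than in the controls, against 25.0% of the 15315 genes tested, and 0 were lower, against 23.9% (edgeR quasi-likelihood test, Benjamini-Hochberg adjusted p under 0.05). At an unadjusted p of the same threshold 37 were higher and 0 lower, and DESeq2 gave 36 and 0. The median log2 fold change of the members was 0.31, beside -0.0083 over all genes tested. In 35 members every WT bleomycin library lay above every control library, which held for 21.5% of all genes. Among those called, the log2 fold change ran from 0.16 in Psme3 to 0.65 in Psmd8. The median standard error of a member's log2 fold change was 0.073, beside 0.11 over all genes.

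**Figure D1:**
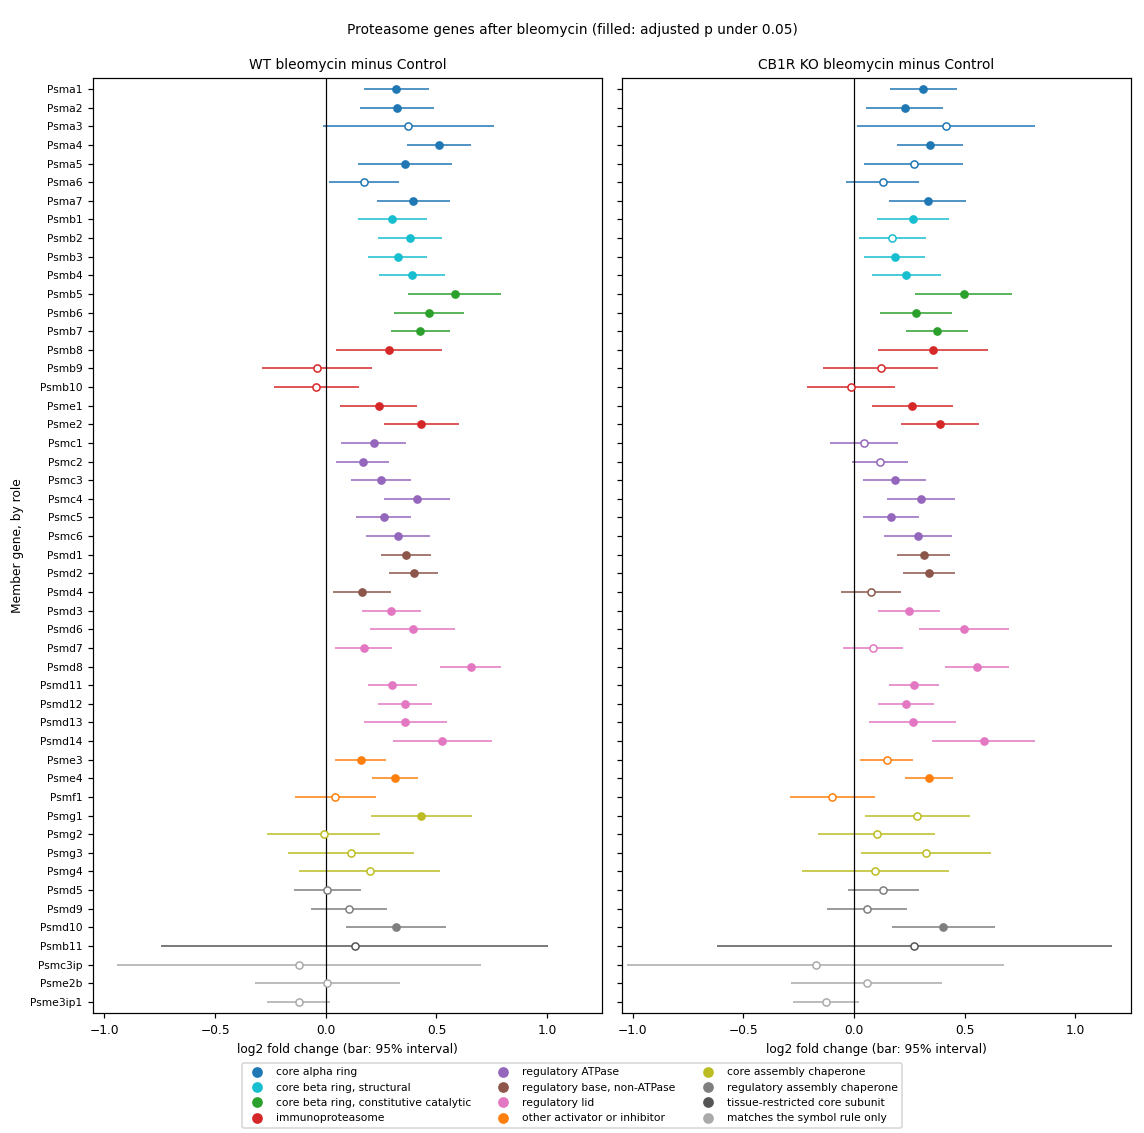
Log2 fold change of each of the 50 tested proteasome genes (rows, coloured by role) in WT bleomycin against control lungs on the left and in CB1R KO bleomycin against control lungs on the right, from edgeR, with 95% intervals as bars. Filled points passed an adjusted p of 0.05; nearly all core and regulatory subunits lie right of 0 in both panels, while the intervals of Psmb9 and Psmb10 span 0.

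In the core particle, 12 of the 14 constitutive subunits were higher after bleomycin and the median log2 fold change was 0.38. Of the roles in the core, the 3 catalytic subunits had the largest median, 0.47. Psmb5 was at 55.6, 55.4, 49.6 and 57.1 CPM in the 4 controls and at 77.2, 78.9, 86.3, 85.8 and 79.2 CPM in the 5 WT bleomycin libraries. Every bleomycin value thus exceeded every control value, with a log2 fold change of 0.58 ± 0.10 (SE, edgeR adjusted p = 0.000209). Psmb6 went from 70.5, 69.2, 60.7 and 66.9 CPM to 88.5, 87.6, 94.7, 105 and 86.2 CPM, a log2 fold change of 0.47 ± 0.073 (SE, edgeR adjusted p = 0.000122). Psmb7 went from 73.7, 75.3, 76.4 and 73.3 CPM to 93.1, 96.6, 100.2, 112 and 100.3 CPM (log2 fold change 0.43 ± 0.063 (SE), edgeR adjusted p = 6.73e-05). The groups did not overlap for either gene, and the control spread was small beside the shift.

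The structural beta subunits, which hold the ring together without cutting, rose as a set of 4 with log2 fold changes of 0.30 for Psmb1, 0.32 for Psmb3, 0.38 for Psmb2 and 0.39 for Psmb4. Psmb2 was at 47.1, 44.3, 50.8 and 45.2 CPM in controls and 57.9, 59.5, 57.2, 69.7 and 60.5 CPM in WT bleomycin lungs, where replicate 4-B2 was the highest (edgeR adjusted p = 0.00036). In the alpha ring, whose subunits form the gate of the barrel, 5 of 7 were higher: Psma4 (0.51), Psma7 (0.40), Psma5 (0.36), Psma2 (0.32) and Psma1 (0.32) on the log2 fold scale. Psma4 had 72.0, 66.4, 68.5 and 67.5 CPM in controls and 89.4, 104, 96.8, 108 and 91.3 CPM after bleomycin, without overlap (edgeR adjusted p = 2.43e-05). The other 2 alpha subunits did not pass. Psma6 had a log2 fold change of 0.17 ± 0.074 (SE, edgeR adjusted p = 0.064). Psma3 had one of 0.37 ± 0.18 (SE, edgeR adjusted p = 0.1), with 24.7, 28.5, 37.5 and 27.6 CPM in controls and 40.4, 40.3, 21.9, 44.3 and 44.8 CPM in WT bleomycin lungs. Replicate 5 of WT bleomycin was the lowest of all 13 libraries for Psma3 while the other 4 bleomycin libraries lay above every control.

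All 17 subunits of the regulatory particle that carry Psm symbols were higher after bleomycin in wild-type mice, with a median log2 fold change of 0.33. The largest values belonged to lid subunits. Psmd8, a lid subunit, was at 82.8, 79.1, 77.9 and 81.5 CPM in controls and at 124, 125, 126, 132 and 125 CPM after bleomycin. The 5 bleomycin libraries were tightly grouped far above the controls, a 1.57-fold difference (log2 fold change 0.65 ± 0.065 (SE), edgeR adjusted p = 2.37e-06). Psmd14, the metalloprotease that strips ubiquitin from substrates, went from 38.9, 37.4, 34.6 and 38.1 CPM to 50.6, 58.1, 49.3, 59.6 and 51.0 CPM (log2 fold change 0.53 ± 0.10 (SE), edgeR adjusted p = 0.000804). The remaining lid subunits had log2 fold changes of 0.39 (Psmd6), 0.36 (Psmd13), 0.36 (Psmd12), 0.30 (Psmd11), 0.30 (Psmd3) and 0.17 (Psmd7). Psmd7 was the sole called member whose groups overlapped, since WT bleomycin replicate 7 fell between the control values.

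In the base, the scaffold subunits Psmd2 and Psmd1 rose with little spread. Psmd2 was at 169, 179, 173 and 182 CPM in controls and 217, 243, 232, 238 and 227 CPM after bleomycin (log2 fold change 0.40 ± 0.052 (SE), edgeR adjusted p = 2.71e-05). Psmd1 was at 112, 111, 109 and 117 CPM and 136, 149.9, 140.2, 152 and 142 CPM (log2 fold change 0.36 ± 0.053 (SE), edgeR adjusted p = 6.82e-05). Neither gene overlapped between the groups. Psmd4, a ubiquitin receptor, rose by less (log2 fold change 0.16 ± 0.060 (SE), edgeR adjusted p = 0.0365). The 6 ATPases that unfold the substrate ranged from 0.17 for Psmc2 through 0.22 for Psmc1, 0.25 for Psmc3, 0.26 for Psmc5 and 0.33 for Psmc6 to 0.41 for Psmc4 on the log2 fold scale, and their 6 groups of bleomycin values lay above the controls without overlap.

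**Figure D2:**
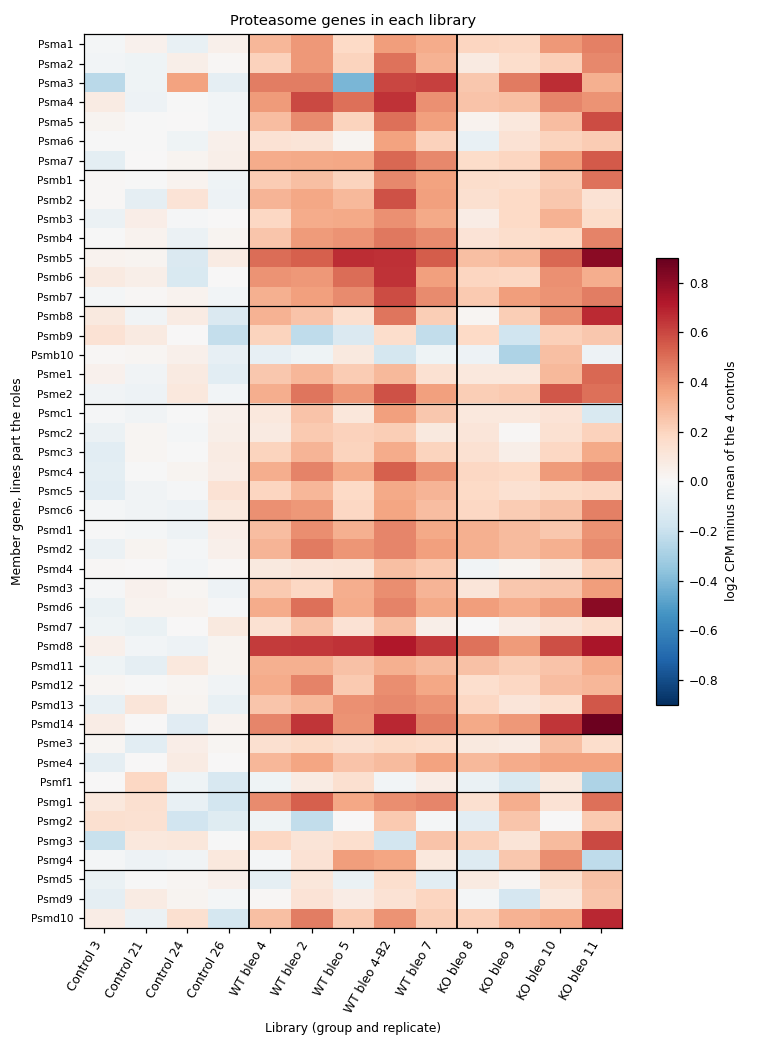
Log2 CPM of 46 proteasome genes (rows, parted by role) in each of the 13 libraries (columns) minus the mean of the 4 control libraries, red above and blue below. The WT bleomycin columns are red in nearly all core and regulatory rows, CB1R KO replicates 8 and 9 are paler than replicates 10 and 11, and the Psmb9 and Psmb10 rows are of mixed sign.

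Of the 5 immunoproteasome genes, 3 were called. The activator genes Psme2 and Psme1 and the catalytic gene Psmb8 were higher in WT bleomycin lungs, while Psmb9 and Psmb10 did not pass the test. Psme2 was at 61.2, 60.6, 66.7 and 61.5 CPM in controls and 78.5, 87.4, 81.9, 93.0 and 80.8 CPM after bleomycin, without overlap (log2 fold change 0.43 ± 0.079 (SE), edgeR adjusted p = 0.000436). Psme2b is a copy of Psme2, and reads that match both could have been split between them when transcripts were quantified, so the Psme2 level is less certain than the others. Psme2b itself stayed at 6.44 to 9.19 CPM in these 2 groups (log2 fold change 0.0077 ± 0.15 (SE), edgeR adjusted p = 0.972). Psme1 was at 109, 104, 113 and 99.6 CPM and 126, 131, 125, 130.0 and 117 CPM (log2 fold change 0.24 ± 0.081 (SE), edgeR adjusted p = 0.0251). Psmb8 was at 50.04, 46.0, 49.4 and 42.8 CPM and 58.3, 56.1, 52.2, 65.6 and 54.9 CPM, with the lowest bleomycin library just above the highest control (log2 fold change 0.29 ± 0.11 (SE), edgeR adjusted p = 0.0458).

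These last calls were close to the threshold. The edgeR adjusted p of Psmb8 rose to 0.0935, 0.0615 and 0.133 without control replicate 21, 24 or 26, and to 0.073, 0.0628, 0.101 and 0.0506 without WT bleomycin replicate 4, 2, 4-B2 or 7. It was also 0.0556 with no count filter and 0.0576 with upper-quartile scaling. Control replicate 26 and WT bleomycin replicates 4-B2 and 7 have capitals in their labels, and what this stands for is not given. The adjusted p of Psmb8 was 0.0584 with label style as a term and 0.274 among the lower-case libraries alone, where that of Psme1 was 0.11. That of Psme1 rose to 0.0601 and 0.0848 without control replicate 21 or 26 and to 0.0519 without WT bleomycin replicate 2. Psmb9, at 33.8, 32.7, 30.9 and 26.6 CPM in controls and 35.5, 26.3, 28.1, 34.4 and 26.5 CPM after bleomycin, had a log2 fold change of -0.040 ± 0.12 (SE, edgeR adjusted p = 0.798), and its groups overlapped. Psmb10, at 52.7, 53.0, 54.2 and 49.9 CPM and 49.9, 51.0, 55.7, 47.0 and 51.2 CPM, had one of -0.042 ± 0.089 (SE, edgeR adjusted p = 0.72). The 95% intervals of the log2 fold change ran from -0.29 to 0.21 for Psmb9 and from -0.23 to 0.15 for Psmb10, beside estimates of 0.47 for Psmb6 and 0.43 for Psmb7, their constitutive counterparts.

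Since each immunoproteasome catalytic subunit takes the place of a constitutive one, the share of the immunoproteasome gene in the summed TPM of its pair was computed for each mouse. In the Psmb9 and Psmb10 pairs every WT bleomycin mouse had a lower share than every control, and the differences did not pass after adjustment. Psmb10 made up 38.2, 37.8, 38.0 and 37.0% of Psmb10 plus Psmb7 in the controls and 31.6, 31.3, 32.5, 26.6 and 30.6% in the WT bleomycin lungs. Means were 37.8% ± 0.511 (SD, n = 4) and 30.5% ± 2.3 (SD, n = 5), with no overlap (two-sided exact permutation p = 0.0159, 0.0714 after Benjamini-Hochberg adjustment over 9 comparisons). Psmb9 made up 21.1, 20.7, 23.3 and 20.3% of Psmb9 plus Psmb6 in controls and 19.1, 14.2, 14.9, 16.1 and 15.0% in WT bleomycin lungs, which did not overlap (exact permutation p = 0.0159, adjusted p = 0.0714). For Psmb8 in Psmb8 plus Psmb5 the means were 46.8% ± 2.85 (SD, n = 4) and 41.9% ± 2.2 (SD, n = 5), with overlap (exact permutation p = 0.0476, adjusted p = 0.0714). None of the 9 comparisons passed an adjusted p of 0.05, and with 5 mice against 4 no p below 0.0159 was possible.

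**Figure D3:**
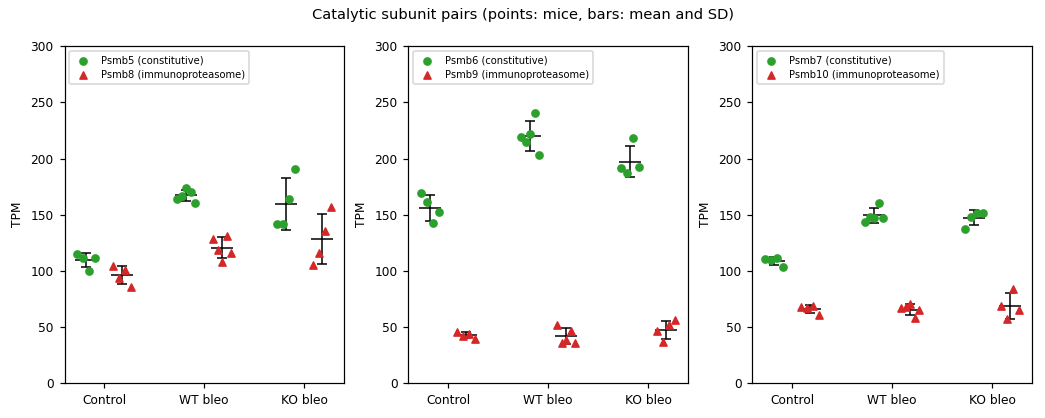
TPM of the constitutive catalytic genes Psmb5, Psmb6 and Psmb7 (green circles) and of the immunoproteasome genes Psmb8, Psmb9 and Psmb10 (red triangles) in each mouse, with mean and SD as bars. The constitutive genes are higher in all 5 WT bleomycin mice than in all 4 controls, while Psmb9 and Psmb10 overlap between the groups.

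**Figure D4:**
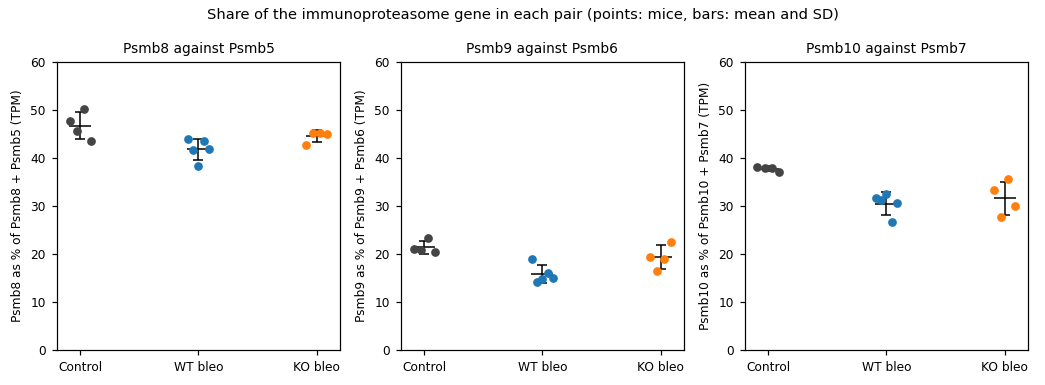
Share of Psmb8, Psmb9 and Psmb10 in the summed TPM of their pairs (percent, y axis) in each mouse of the 3 groups, with mean and SD as bars. The shares of Psmb9 and Psmb10 are lower in every WT bleomycin mouse than in every control.

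For 4 genes of these pairs the bases upstream of the transcription start are shown, with the letters that were searched in all promoters. The sequences are RefSeq's for GRCm38.p6, which is not the build of the deposited tables (GRCm39), and each holds the 250 bases before the start, 5′ to 3′ along the gene. Psmb5 lies at chr14:54617996-54618245 on the minus strand and Psmb6 at chr11:70525107-70525356 on the plus strand, and the match to TGACNNNGC, the core of the element bound by Nfe2l1 and Nfe2l2, is in capitals. Psmb8 lies at chr17:34197945-34198194 on the plus strand, with its match to TTCNNNGAA in capitals, the core of the interferon-gamma-activated sequence. Psmb9 lies at chr17:34187331-34187580 on the minus strand, with its match to CCAAT, the NF-Y element, on the opposite strand in capitals. Psmb8 and Psmb9 lie next to the Tap genes in the MHC region.
Psmb5: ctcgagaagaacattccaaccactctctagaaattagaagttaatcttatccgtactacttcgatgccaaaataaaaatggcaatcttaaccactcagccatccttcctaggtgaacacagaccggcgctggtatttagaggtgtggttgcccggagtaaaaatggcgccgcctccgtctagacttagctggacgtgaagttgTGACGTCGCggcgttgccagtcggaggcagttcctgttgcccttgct
Psmb8: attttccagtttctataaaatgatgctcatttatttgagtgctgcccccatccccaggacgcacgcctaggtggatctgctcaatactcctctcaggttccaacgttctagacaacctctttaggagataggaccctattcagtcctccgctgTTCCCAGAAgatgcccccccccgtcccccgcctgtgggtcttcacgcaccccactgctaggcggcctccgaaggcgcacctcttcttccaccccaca
Psmb6: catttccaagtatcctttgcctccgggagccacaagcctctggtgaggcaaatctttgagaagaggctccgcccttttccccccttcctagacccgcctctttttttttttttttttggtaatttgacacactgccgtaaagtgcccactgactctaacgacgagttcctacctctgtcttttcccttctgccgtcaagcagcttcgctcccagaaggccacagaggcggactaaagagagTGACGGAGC
Psmb9: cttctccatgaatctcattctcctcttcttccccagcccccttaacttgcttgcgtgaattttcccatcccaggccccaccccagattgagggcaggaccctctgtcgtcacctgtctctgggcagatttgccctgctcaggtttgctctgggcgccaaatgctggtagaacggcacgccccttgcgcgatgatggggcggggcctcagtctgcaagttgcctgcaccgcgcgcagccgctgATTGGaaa

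The motif letters were searched on both strands in these 250 bases of the 43 members with a RefSeq promoter. TGACNNNGC was found in 5 of 43 members (Psmb5, Psmb6, Psmc6, Psmd9 and Psmd12), which is 11.6%, beside 11.5% of 27025 genes. CCAAT was found in 16 members (37.2%, beside 37.5% of all genes). GAAANNGAA, the core of the interferon-stimulated response element, was found in 3 members (6.98%, beside 8.18%), none of them an immunoproteasome gene, and TTCNNNGAA in 2, Psmb8 and Psmg1 (4.65%, beside 8.13%). The shares of the members were thus near those of all genes or below them for all 4 motifs, none of which contains another. No RefSeq promoter was matched for Psma8, Psmb1, Psmb2, Psmb7, Psmc3, Psmd3, Psmd7 and Psmg2.

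Among the other activators, Psme4, whose product caps the core particle in the nucleus, was at 80.5, 85.1, 89.5 and 85.2 CPM in controls and 104, 109, 102, 104 and 109 CPM in WT bleomycin lungs. Every bleomycin value was higher (log2 fold change 0.31 ± 0.049 (SE), edgeR adjusted p = 0.000113). Psme3, a nuclear relative of Psme1 and Psme2, rose by a log2 fold change of 0.16 ± 0.054 (SE, edgeR adjusted p = 0.0255). Psmf1, an inhibitor of the core particle in vitro, had one of 0.042 ± 0.086 (SE, edgeR adjusted p = 0.71) and did not pass. Of the 7 assembly chaperones 2 were called higher, a share near the 25.0% among all genes tested. Of the 31 constitutive core and regulatory subunits 29 were, a contrast that was not tested and that sets genes of unequal level side by side. Psmg1, which pairs with Psmg2 to start the alpha ring, had 10.0, 10.4, 8.97 and 8.38 CPM in controls and 12.7, 13.7, 12, 12.6 and 12.8 CPM after bleomycin (log2 fold change 0.43 ± 0.11 (SE), edgeR adjusted p = 0.00395). Its groups did not overlap, whereas its partner Psmg2 had a log2 fold change of -0.010 ± 0.12 (SE, edgeR adjusted p = 0.952). Psmd10, a chaperone of the regulatory particle, was also higher (0.32 ± 0.11, edgeR adjusted p = 0.022). The chaperones that did not pass were Psmg4 (0.20 ± 0.15), Psmg3 (0.11 ± 0.13), Psmd9 (0.11 ± 0.081) and Psmd5 (0.0067 ± 0.071), given as log2 fold change and SE. Psmb11 had a log2 fold change of 0.13 ± 0.41 (SE), Psme3ip1, which encodes a partner of Psme3, one of -0.12 ± 0.067 (SE), and Psmc3ip, a factor of meiotic recombination, one of -0.12 ± 0.38 (SE), none past the threshold.

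Genes that work with the proteasome but carry other symbols were described from a list of 25, of which 24 were measured and Paaf1 was not analysed here. In WT bleomycin against control lungs 11 were higher, against 25.0% of all genes tested, and 4 were lower, against 23.9%. The other 9 did not pass the threshold, and the median log2 fold change was 0.11. Higher were Pomp (0.44), which matures the core particle, Vcp (0.41), the segregase that extracts ubiquitinated proteins, the proteasome-bound thioredoxin Txnl1 (0.33), the deubiquitinase Usp14 (0.39) and the subunits Sem1 (0.40) and Adrm1 (0.32) of the regulatory particle. Nub1, which brings proteins tagged with ubiquitin-like modifiers to the proteasome, was lower (-0.40 ± 0.059 (SE), edgeR adjusted p = 7.29e-05), as were Fbxo7 (-0.38), Ubqln2 (-0.28) and Ngly1 (-0.21). Nfe2l1 itself had a log2 fold change of 0.0052 ± 0.055 (SE, edgeR adjusted p = 0.946), while Ddi2, the protease that activates its product, was higher (0.19). RNA levels do not give the activity of the Nfe2l1 product, which was not measured. Among genes of ubiquitin and its activating enzymes, Uba6 (0.27), Rps27a (0.25) and Uba1 (0.16) were higher, while the polyubiquitin gene Ubb (0.077) did not pass.

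In the pathway that presents the peptides made by the immunoproteasome, 3 of 12 genes were higher after bleomycin and 0 lower, a share of higher genes equal to the 25.0% among all genes tested. They were the chaperones Calr (0.72), Pdia3 (0.55) and Canx (0.39), which serve many proteins besides MHC class I. The peptide transporter genes Tap1 (0.074 ± 0.11, edgeR adjusted p = 0.609) and Tap2 (-0.069 ± 0.066, edgeR adjusted p = 0.405) and the light chain gene B2m (0.13 ± 0.10, edgeR adjusted p = 0.305) did not pass, with SE after each log2 fold change. Of the 14 genes of the interferon-gamma pathway 13 were tested, with 5 higher, 2 lower and a median log2 fold change of 0.13. Over all genes tested 25.0% were higher and 23.9% lower. The chemokines Cxcl10 (3.60) and Cxcl9 (3.19), the feedback inhibitor Socs1 (0.85), the receptor chain Ifngr2 (0.57) and Jak2 (0.31) were higher. The transcription factor Irf1 (-0.40 ± 0.082 (SE), edgeR adjusted p = 0.000969) and the GTPase gene Gbp2 (-0.42 ± 0.12 (SE), edgeR adjusted p = 0.0103) were lower. These lists were chosen with earlier results known, and their counts are descriptions. Ifng, with 1 to 22.9 estimated counts per library, the highest in the deepest library (CB1R KO replicate 11), was not tested.

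Markers of several cell types moved in the same contrast, in which 25.0% of all genes tested were higher and 23.9% lower. All 8 macrophage markers and all 5 markers of dividing cells were higher in WT bleomycin lungs, with median log2 fold changes of 1.33 and 2.81. Of the lymphoid markers, 4 of 8 for T and NK cells were lower and 0 higher (median -0.78), and 4 of 6 for B and plasma cells were lower while Jchain was higher (2.70). Lower too were 4 of 5 type II cell, 5 of 5 endothelial, 4 of 5 neutrophil, 5 of 5 cardiac muscle and 3 of 5 adipocyte markers. Of the fibroblast markers 2 of 5 were higher and 0 lower, while the type I cell markers (1 higher, 2 lower of 5) and alveolar macrophage markers (1 higher, 2 lower of 6) were divided. The summed level of the dividing cell markers was 15.0, 18.3, 12.7 and 14.1 TPM in the controls and 106, 135, 101, 116 and 83.8 TPM in WT bleomycin lungs, and that of the macrophage markers 328, 412, 316 and 310.4 TPM and 1568, 1624, 1584, 1384 and 1440.1 TPM. Neither sum overlapped between the groups, and the part of these cell types in the rise of the proteasome genes was not tested.

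The same comparison in the libraries labelled CB1R KO gave smaller counts with the same direction. Of 50 members, 28 were higher than in control lungs, against 19.0% of all genes tested, and 0 were lower, against 16.3% (edgeR, adjusted p under 0.05; DESeq2 gave 29 and 0). At an unadjusted p of that threshold 34 were higher and 0 lower. Groups did not overlap for 29 members, all higher, against 17.7% of all genes, and the median log2 fold change was 0.26, beside -0.0072 over all genes. The 2 bleomycin contrasts share their 4 control libraries, so their counts are not independent of each other. Psmd8 was at 113, 105, 120.1 and 134 CPM in the CB1R KO libraries (log2 fold change from control 0.55 ± 0.068 (SE), edgeR adjusted p = 3.62e-05), and all 4 values exceeded the controls. The next lowest p-values belonged to Psme4 (0.34 ± 0.051), Psmd2 (0.34 ± 0.055), Psmb7 (0.37 ± 0.066) and Psmd1 (0.31 ± 0.056), given as log2 fold change and SE, each without overlap with the controls. Psmd14 had the largest log2 fold change among the members, 0.59 ± 0.11 (SE), and Psmd6 had 0.50 ± 0.095 (SE).

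By role, 10 of 14 constitutive core subunits (median log2 fold change 0.27) and 13 of 17 regulatory subunits (0.27) were higher in CB1R KO bleomycin than in control lungs. Over all genes tested 19.0% were higher. Subunits that did not pass here but were called in WT bleomycin lungs were Psmb2 (0.17 ± 0.071, edgeR adjusted p = 0.0717), Psma5 (0.27 ± 0.10, edgeR adjusted p = 0.0581), Psmc1 (0.045 ± 0.072, edgeR adjusted p = 0.661), Psmc2 (0.12), Psmd4 (0.078) and Psmd7 (0.086). A call in 1 group and not in the other does not show that they differ, and the direct comparison of the genotypes is given below. Psma3 (0.42 ± 0.19, edgeR adjusted p = 0.0983) and Psma6 (0.13 ± 0.077, edgeR adjusted p = 0.21) passed in neither contrast. Of the 7 chaperones, Psmd10 was higher (0.40 ± 0.11 (SE), edgeR adjusted p = 0.0107), while Psmg1 (0.29 ± 0.11) and Psmg3 (0.32 ± 0.14), the latter at 6, 7.39, 7.43 and 6.89 CPM in controls and 8.05, 7.48, 8.45 and 10.5 CPM in CB1R KO lungs, did not pass (edgeR adjusted p = 0.0585 and 0.0812). By limma on log2(TPM + 1) Psmg3 did pass (adjusted p = 0.0273). Psme3 (0.15 ± 0.056, edgeR adjusted p = 0.0555) and Psmf1 (-0.10 ± 0.090, edgeR adjusted p = 0.413) did not.

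Constitutive catalytic subunits were higher in this group as well, with Psmb5 at 65.7, 67.0, 77.7 and 95.4 CPM (log2 fold change from control 0.49 ± 0.10 (SE), edgeR adjusted p = 0.00189) and Psmb6 at 76.3, 76.0, 88.6 and 83.6 CPM (0.28 ± 0.077 (SE), edgeR adjusted p = 0.0112). Replicate 11 had the highest Psmb5 value of all 13 libraries. Among the immunoproteasome genes, Psme2 (0.39 ± 0.083 (SE), edgeR adjusted p = 0.00242), Psmb8 (0.36 ± 0.12 (SE), edgeR adjusted p = 0.0285) and Psme1 (0.26 ± 0.085 (SE), edgeR adjusted p = 0.0271) were higher. Psmb9 (0.12 ± 0.12 (SE), edgeR adjusted p = 0.469) and Psmb10 (-0.014 ± 0.094 (SE), edgeR adjusted p = 0.924) did not pass. The edgeR adjusted p of Psmb8 was 0.0628, 0.082, 0.0627 and 0.0951 without control replicate 21, control replicate 26, CB1R KO replicate 10 or CB1R KO replicate 11, and that of Psme1 0.0626, 0.0813, 0.055 and 0.0726 without the same libraries. Among the lower-case libraries alone these adjusted p-values were 0.0848 and 0.0921, and in edgeR fits of the 2 groups 0.055 and 0.062. Both calls thus depended on which libraries were included. The share of Psmb10 in its pair was 33.3, 27.8, 35.6 and 30.0% in the CB1R KO lungs, below every control (exact permutation p = 0.0286, the smallest that 4 mice against 4 allow, adjusted p = 0.0714). The shares of Psmb8 (exact permutation p = 0.2) and Psmb9 (exact permutation p = 0.257) overlapped with the controls.

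Between the genotypes after bleomycin, no proteasome gene passed the test. Members called were 0 higher, against 0.359% of the 15315 genes tested, and 0 lower, against 0.620% (edgeR, adjusted p under 0.05), and DESeq2 also gave 0 and 0. At an unadjusted p of that threshold 0 members were higher, against 7.95% of all genes, and 7 lower, against 9.08%. These 7 were Psmb2, Psmb6, Psma4, Psmc1, Psmb3, Psmd12 and Psmb4, and DESeq2 gave 7 lower as well. The members' median log2 fold change was -0.049, with 36 below 0 and 14 above, beside 0.0005 over all genes. Of the 31 constitutive core and regulatory subunits 28 lay below 0 (median -0.086), and of the 5 immunoproteasome genes 4 lay above 0 (median 0.029), as descriptions without a test. The label was not checked by Cnr1 counts (above), so a direction between genotypes holds for the libraries as labelled.

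**Figure D5:**
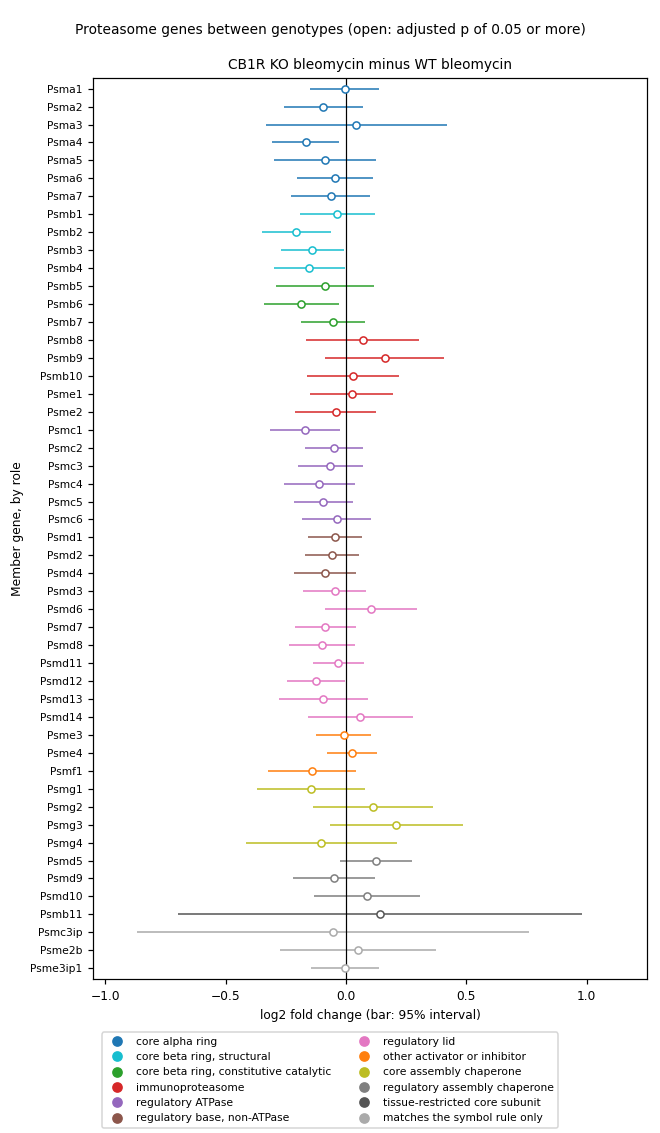
Log2 fold change of each of the 50 tested proteasome genes (rows, coloured by role) in CB1R KO bleomycin against WT bleomycin lungs, from edgeR, with 95% intervals as bars. All points are open because no gene passed an adjusted p of 0.05, and 36 of 50 lie left of 0.

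The members with the lowest p in each direction are given here as values. Psmb2 was at 57.9, 59.5, 57.2, 69.7 and 60.5 CPM in WT and 51.7, 53.0, 55.5 and 51.3 CPM in CB1R KO lungs after bleomycin, a log2 fold change of -0.21 (95% interval -0.35 to -0.062, edgeR adjusted p = 0.147). It was the 1 member whose groups did not overlap, which held for 3.10% of all genes in the lower direction. Psmb6 had a log2 fold change of -0.19 (95% interval -0.34 to -0.031, edgeR adjusted p = 0.212) and Psma4 one of -0.17 (-0.31 to -0.027, edgeR adjusted p = 0.213), with groups that overlapped. In the other direction Psmd5, a chaperone that holds the ATPase base, was at 39.0, 44.2, 39.5, 45.8 and 38.5 CPM in WT and 43.6, 41.6, 45.5 and 49.5 CPM in CB1R KO lungs (log2 fold change 0.13, 95% interval -0.025 to 0.28, edgeR adjusted p = 0.387). Psmg3 (0.21, 95% interval -0.068 to 0.49) and Psmb9 (0.16, 95% interval -0.086 to 0.41) were also above 0 without passing (edgeR adjusted p = 0.437 and 0.507). For the 31 constitutive core and regulatory subunits the log2 fold change ran from -0.21 to 0.10, from Psmb2 to Psmd6, beside a median standard error of 0.0725 over the tested members, and a p that missed the threshold does not show that the genotypes were alike.

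The share of Psmb9 in its pair was 19.5, 16.5, 19.1 and 22.5% in CB1R KO lungs, beside 19.1, 14.2, 14.9, 16.1 and 15.0% in WT bleomycin lungs (difference of means 3.54 percentage points, two-sided exact permutation p = 0.0317, adjusted p = 0.0714). The share of Psmb8 was 42.6, 45.1, 45.2 and 45.1% beside 43.9, 41.6, 38.4, 43.6 and 41.9% (2.65 points, exact permutation p = 0.0476, adjusted p = 0.0714). Groups overlapped in both pairs, and neither difference passed the adjustment. For Psmb10 the difference was 1.14 points (exact permutation p = 0.571).

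The libraries labelled CB1R KO were not alike. The median difference from the control mean over the 31 constitutive core and regulatory subunits was 0.18, 0.19, 0.26 and 0.40 on the log2 scale in replicates 8, 9, 10 and 11, while the WT bleomycin libraries stood at 0.30, 0.38, 0.29, 0.44 and 0.35. Replicates 8, 9 and 10 were thus below every WT bleomycin library, and replicate 11 was within their range. Over all genes tested the same median stayed between -0.0068 and 0.0084 in the 13 libraries. The summed level of the dividing cell markers was 46.8, 62.5, 117 and 152 TPM in these 4 libraries, with the lower values in the same replicates 8 and 9. The macrophage markers summed to 1182, 987, 1575 and 1214 TPM, and the type II cell markers to 32434, 36481, 23201 and 35252 TPM beside 21779.8, 22156, 20476, 18827 and 18588 TPM in WT bleomycin lungs. Of the 5 type II cell markers 3 were higher in CB1R KO than in WT bleomycin lungs by the test, against 0.359% of all genes tested. All 8 T and NK cell markers lay above 0 and 1 passed, Nkg7 (log2 fold change 0.86 ± 0.18 (SE), edgeR adjusted p = 0.0411). The 5 cardiac muscle, 5 adipocyte and 5 endothelial markers also lay above 0, and 0 passed. All 5 dividing cell, all 5 fibroblast and 7 of 8 macrophage markers lay below 0, and 0 passed. The part of these cells in the spread of the proteasome genes was not tested. Calls between genotypes varied with the libraries kept. Over all genes tested 150 were called, and 9, 1, 653 and 3 without CB1R KO replicate 8, 9, 10 or 11. Which of the markers named here passed in those fits is not reported here. The members' median between genotypes was -0.016, -0.032 and -0.084 without CB1R KO replicate 8, 9 or 11, and -0.028 without WT bleomycin replicate 4-B2.

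Between genotypes, 0.359% of all genes tested were higher in the CB1R KO libraries and 0.620% lower. Of the 24 measured partners of the proteasome, 1 was higher and 0 were lower. This was Nub1 (log2 fold change 0.28 ± 0.059 (SE), edgeR adjusted p = 0.0411), which had been lower in WT bleomycin than in control lungs. The number of genes called between genotypes varied with the libraries kept (above), and the result for Nub1 in those fits is not reported here. None of the 12 MHC class I loading genes or 13 tested interferon-gamma pathway genes passed the test between genotypes. Against control lungs, 5 of the 12 MHC class I loading genes were higher in CB1R KO lungs, against 19.0% of all genes tested. They were H2-K1, H2-D1 and the chaperones Calr (0.63), Pdia3 (0.57) and Canx (0.43), which were also higher in WT bleomycin lungs. H2-K1 had a log2 fold change from control of 0.31 ± 0.068 (SE, edgeR adjusted p = 0.00302) and H2-D1 one of 0.18 ± 0.061 (SE, edgeR adjusted p = 0.0288). In WT bleomycin lungs H2-K1 and H2-D1 had log2 fold changes from control of 0.13 ± 0.065 (SE, edgeR adjusted p = 0.109) and 0.065 ± 0.057 (SE, edgeR adjusted p = 0.375). Directly between genotypes they had 0.18 ± 0.064 (SE, edgeR adjusted p = 0.181) and 0.12 ± 0.057 (SE, edgeR adjusted p = 0.308).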

How the data were processed

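Lung RNA of 13 mice was sequenced as poly(A)-selected, paired-end libraries. The authors quantified reads with Kallisto (version not given in the sources used here) on the Ensembl mouse reference (GRCm39 per the labels) and summed protein-coding transcripts per gene symbol. They deposited estimated counts, of which 70.5% of values were not whole, and TPM. The sources do not state whether counting used strand. Files deposited per sample repeat the series tables and were set aside, and 1 column of the TPM table that matched no sample was left out.

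Estimated counts were rounded and filtered with filterByExpr. Groups were compared by quasi-likelihood F-tests in edgeR 4.0.16 under R 4.3.3 (TMM, 13 libraries in 1 fit with 1 coefficient per group, no covariates, Benjamini-Hochberg over 15315 genes, adjusted p of 0.05). Fold changes are from that fit, and log2 CPM were made with 2 as prior count. The total count behind a library bounds counting error only. Shares of gene pairs used TPM and two-sided exact permutation tests (scipy 1.17.1), adjusted over 9 comparisons. P-values set the difference between groups against the variation between these mice. Alternatives were no filter or at least 10 counts per library, scaling by RLE or by the upper quartile, DESeq2 1.42.0, limma 3.58.1 on log2(TPM + 1) or log2(TPM + 0.1), fits of 2 groups, the style of the labels, thinning of CB1R KO replicate 11 and leaving out each library. The test was checked on simulated counts.

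The members, the named genes and the lists were chosen with earlier results of these data known. Always named were the 5 immunoproteasome genes and Psmb5, Psmb6 and Psmb7, then the 5 members with the lowest p per direction and comparison past the threshold, or the 3 with the lowest p between genotypes. From each list up to 3 genes of lowest p per direction were taken, and other list genes were named after their values were seen (some genes of the lists are not reported here), as were Psma3, Psmd14 and Psmg1. Promoters and gene starts are from RefSeq (GRCm38.p6), where 43 of 51 members matched by symbol.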

Additional observations from a re-analysis of the deposited data

Results flagged for a closer look

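In each group of 4 or 5 libraries, a library was singled out where its gap to the nearest other exceeded Dixon's critical value in the log2 CPM of the 16 named members or in the pair shares. This happened in 5 of 57 groups tested, where chance gives about 1 in 20. Psmb9 was lowest in CB1R KO replicate 9, at 4.774 log2 CPM beside 5.131 to 5.194 in the other 3. Psme2 was highest in control replicate 24, at 6.062 log2 CPM beside 5.924 to 5.946. WT bleomycin replicate 4-B2 was highest for Psmd8, at 7.048 log2 CPM beside 6.958 to 6.981, and for Psmb2, at 6.125 beside 5.842 to 5.921. The share of Psmb8 in Psmb8 plus Psmb5 was lowest in CB1R KO replicate 8, at 42.63% beside 45.1% to 45.18%. The cause was not tested for any of these values.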

How the results depend on the processing

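The counts of members called higher ranged over 25 alternatives from 26 to 38 between WT bleomycin and control (36 as reported) and from 21 to 37 between CB1R KO bleomycin and control (28 as reported), and 0 members were called between genotypes in any of them. The lowest 26 came from the libraries with lower-case labels alone, which leave 3 of 5 WT bleomycin and 3 of 4 control mice. The count of members lower in CB1R KO than in control lungs was 0 to 1 when a library was left out, and the 1, without CB1R KO replicate 11, was Psme3ip1 (-0.18). Values near 0 changed sign. Psmd5 between WT bleomycin and control was -0.0074 under upper-quartile scaling, -0.00070 with label style as a term and -0.028 to 0.036 with a library left out. Psmb10 between CB1R KO and control was 0.042 by limma on both pseudocounts, 0.00048 with replicate 11 thinned and -0.12 to 0.068 with a library left out. Between genotypes, label style as a term gave -0.0070 for Psmb10 and -0.0048 for Psme1, the lower-case labels alone gave -0.0071 for Psmb10, 0.00066 for Psmb7 and -0.15 percentage points for the share of Psmb10. With a library left out, the log2 fold change between genotypes was -0.058 to 0.16 for Psmb8, -0.077 to 0.11 for Psmb10, -0.072 to 0.075 for Psme1 and -0.10 to 0.0070 for Psme2, the share of Psmb10 differed by -0.17 to 2.43 points, and Psmb9 between WT bleomycin and control was -0.11 to 0.0085. The cause was not tested. Psmb2 in CB1R KO against control lungs, not past the threshold as reported (adjusted p = 0.0717), passed without control replicate 24 (0.0459) or WT bleomycin replicate 4-B2 (0.0321), with replicate 11 thinned (0.0481) and by limma (0.0182 with a pseudocount of 1). No paired analysis was possible because the groups share no replicate numbers. Psma8 did not pass the count filter. Levels of the members that were tested lay well above that filter, except Psmb11 and Psmc3ip, and the number of mice limits what the genotype contrast resolves.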
